A study of Mus musculus with 22 samples.

Results

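The interaction of chemical exposure and LPS asks whether microglia of mice exposed to Gulf War chemicals answered lipopolysaccharide (LPS), which is shed from the envelope of Gram-negative bacteria and stirs inflammation, differently from microglia of unexposed mice. It is a difference of differences on the log2 scale, (GW-LPS minus GW-PBS) minus (Ctrl-LPS minus Ctrl-PBS). It was computed for every gene that passed a filter on low counts, 16554 of 54532 genes. A negative value means that the LPS difference was lower in exposed than in control mice. The contrast uses 15 of the 22 libraries of the study. They are 3 GW-LPS, 4 GW-PBS, 4 Ctrl-LPS and 4 Ctrl-PBS libraries.

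All mice were male C57BL/6J. GW mice were injected at 10 weeks of age, daily for 10 days, with permethrin (200 mg/kg), an insecticide of the pyrethroid class, together with pyridostigmine bromide (0.7 mg/kg), which blocks the breakdown of acetylcholine. Control (Ctrl) mice had vehicle. All 4 groups were kept to 17.5 months of age and then received the vehicle of the cannabidiol (CBD) arms on the same schedule as those arms. A single intraperitoneal injection of LPS from Escherichia coli (0.33 mg/kg) or of phosphate-buffered saline (PBS) followed, and brains were taken after 24 hours. Microglia were sorted as live CD45mid, CD11b+ and CD11a- cells. The 2 groups of CBD-treated GW mice are not in the contrast and entered the fit only through the shared estimate of spread. Whether a library holds 1 mouse or a pool is not stated in the labels, and p-values therefore describe how much libraries differ. The GW-LPS libraries carry the numbers 2 to 4 of their library names.

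Microglia sense LPS mainly through Toll-like receptor 4. One branch of that receptor acts through MyD88 and NF-kB and turns on cytokines and chemokines, and the other acts through TRIF and IRF3 and turns on type I interferon. Interferon then acts through its receptor on transcription factors that bind interferon-stimulated response elements in the promoters of antiviral and antigen presentation genes. Microglia that have met an earlier stimulus can answer a later one more strongly or more weakly than naive cells, which is the kind of change an interaction measures.

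Library totals of the 15 libraries ran from 31987884 to 38831070 counts. Microglial marker genes were high throughout, and Cx3cr1, which encodes the fractalkine receptor, had 1793 to 4908 CPM (counts scaled to a common library size) in every library. Marker sums of other cells were 174 to 294 CPM for astrocytes, 244 to 626 for oligodendrocytes, 1.73 to 7.86 for neurons, 689 to 1309 for endothelial and mural cells, 593 to 1338 for border-associated macrophages and 65.9 to 1569 for erythroid cells. Lymphocyte and NK cell markers summed to 201 to 719.5 CPM in GW-LPS, 899 to 1040.5 CPM in GW-PBS, 296 to 563 CPM in Ctrl-LPS and 1020.5 to 1123 CPM in Ctrl-PBS, so that LPS libraries were lower in either arm. Defining markers were far lower than these sums. The T cell gene Cd3e reached 0.63 CPM at most and the B cell gene Cd79a 34.1. The endothelial genes Cldn5 and Pecam1 reached 13.3 and 28.6 CPM, and the astrocyte genes Aqp4 and Gfap 1.5 and 12.2 CPM. The lymphocyte, endothelial and astrocyte sums thus came mostly from other genes, and cell numbers were not measured. Neutrophil markers stood apart in 3 libraries, called neutrophil-rich here. The 18 genes of that list summed to 2181 CPM in GW-PBS replicate 1, 3579.6 CPM in replicate 1 of Ctrl-LPS and 30068 CPM in Ctrl-PBS replicate 3, while it was 507 to 1135 CPM in each of the remaining 12. The granulocyte genes Ly6g, Elane and Camp were at 0 in at least 1 library each. They reached 82.2, 452 and 1379 CPM in Ctrl-PBS, and at most 5.94, 4.79 and 109 CPM in the other groups. Another set of libraries shared high sums of 23 endoplasmic reticulum stress and heat shock genes. Those were GW-LPS replicates 2 and 4 (12883 and 12605 CPM) and Ctrl-LPS replicate 3 (13567 CPM), against 5275 to 8076 CPM in the other 12. Their lymphocyte and NK cell sums were 719.5, 540 and 563 CPM, against 201 to 300 CPM in the other LPS libraries. What these differences contribute to the interaction was not tested beyond leaving libraries out.

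No gene passed the interaction over all genes tested. In edgeR's quasi-likelihood test 0 of 16554 genes (0%) had an adjusted p under 0.05, and the smallest adjusted p was 0.211. At an unadjusted p under 0.05 there were 2099 genes (12.7%), where 828 would lie under that p if no gene differed. They were uneven in sign. Of all genes tested 1370 (8.28%) were negative and 729 (4.4%) positive at that p, although over all genes 49.5% of values were negative and the median was 0.00817. The negative count was 697 without GW-PBS replicate 1 and 819 without Ctrl-LPS replicate 1, and the positive count was 1465 without GW-PBS replicate 2 and 1238 without Ctrl-LPS replicate 3. Without the 3 neutrophil-rich libraries 497 genes were negative and 357 positive at that p. The 828 above, which counts both signs together, is the number to set beside them. With other tools on the same counts, DESeq2 called 49 genes negative (0.296%) and 10 positive (0.0604%), and limma voom with quality weights called 87 negative (0.526%) and 24 positive (0.145%). The 42 genes that both called held 38 negative ones. Below, a gene is said to have risen or fallen with LPS only where that response passed in its own arm (edgeR adjusted p under 0.05), and interactions are given as values.

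The responses behind the contrast were of unequal breadth. In GW mice 737 genes rose with LPS (4.45%) and 840 fell (5.07%), and in control mice 1785 rose (10.8%) and 1593 fell (9.62%). These counts rest on 3 GW-LPS and 4 Ctrl-LPS libraries and moved with single ones. In GW mice 1195 genes rose without GW-PBS replicate 2, and 360 to 488 without any 1 of the other 6 GW libraries, and 373 to 539 fell without GW-LPS replicate 3, GW-LPS replicate 4 or GW-PBS replicate 1. In control mice 1179 rose without Ctrl-LPS replicate 1. Of the 1370 negative genes 641 had risen in control mice, 59 of them in GW mice too, and 128 had fallen in GW mice. For 603 no response had passed in either arm. Of the 729 positive genes 347 had fallen in control mice, 34 of them in GW mice too, and 42 had risen in GW mice. Selection by the interaction favours such differences between the arms, so these counts only describe the genes selected. Counts of list members below are to be set beside the shares of all genes tested in this paragraph and the one before.

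**Figure D1:**
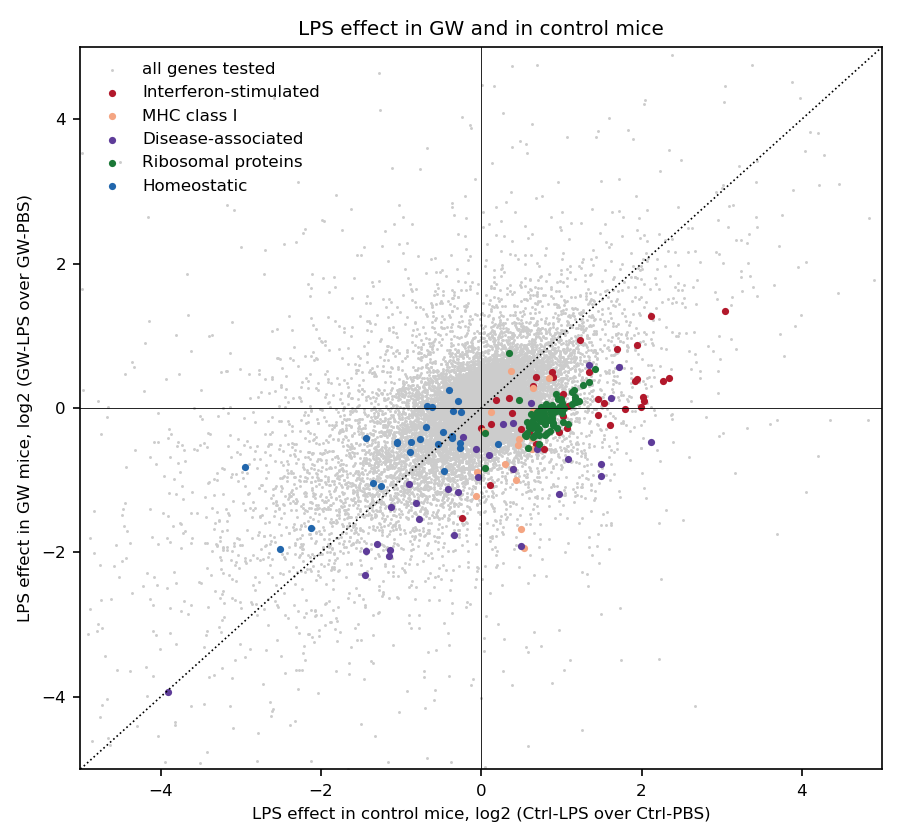
Log2 difference with LPS in GW mice (vertical axis, GW-LPS over GW-PBS) against that in control mice (horizontal axis, Ctrl-LPS over Ctrl-PBS), 1 point per gene, with 5 gene lists in colour. The interaction is the vertical distance from the dotted diagonal. All 39 interferon-stimulated and all 31 disease-associated genes lie below it, and 177 genes lie outside the frame of 5 log2 units.

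The same interaction can be split the other way, into the difference between exposed and control mice after LPS and that after PBS. Neither split passed on its own, with 0 genes called after LPS (0%, with 2267 genes or 13.7% at an unadjusted p under 0.05) and 0 after PBS (0%, with 621 genes or 3.75%) in edgeR. For 1181 of the 1370 negative genes the part after LPS was the larger in size, and for 603 of the 729 positive ones. The parts had opposite signs in 1329 of the negative genes. The selection by the interaction favours such opposite signs, so these counts describe the genes and support nothing. Interferon-stimulated genes had a median of -0.93 after LPS and 0.11 after PBS, and disease-associated microglia genes had -0.30 and 0.55. Over all genes tested the medians were -0.0112 and 0.0169.

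**Figure D2:**
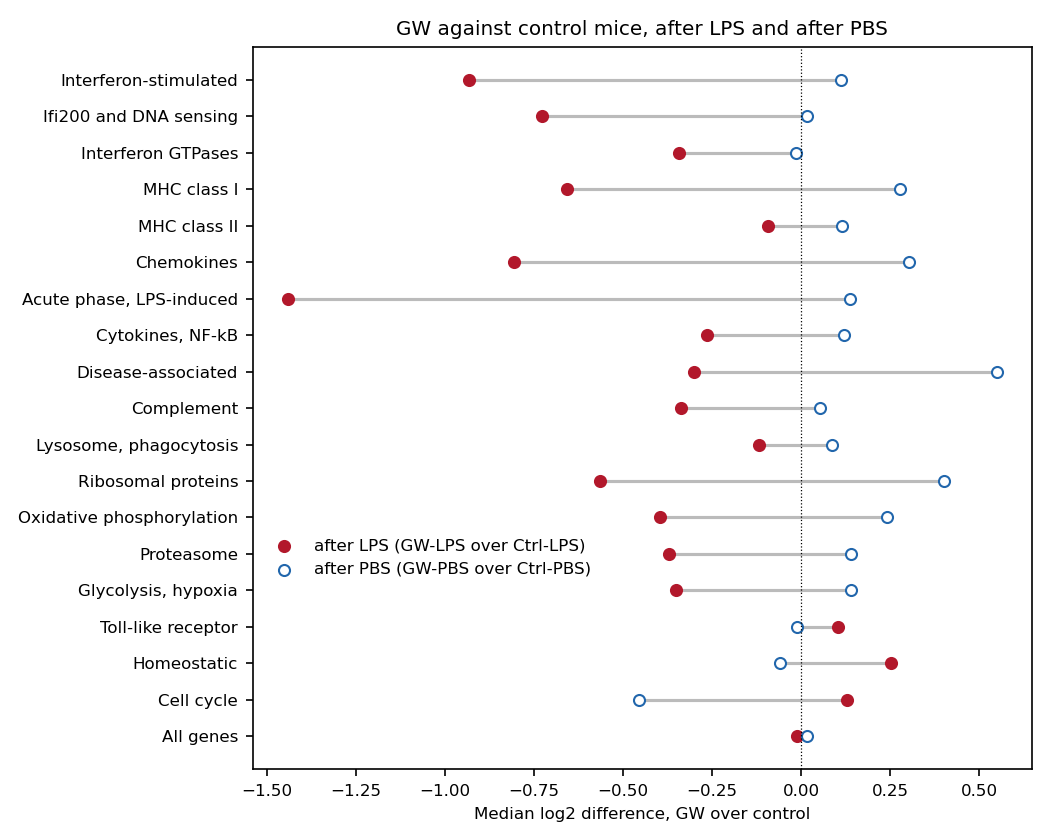
Median log2 difference of GW over control mice for 18 gene lists and all genes tested, after LPS (filled) and after PBS (open). The gap between the points shows how the interaction of a list divides. Interferon-stimulated genes lie at -0.93 after LPS and 0.11 after PBS, and disease-associated genes reach 0.55 after PBS.

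Type I interferon-stimulated genes had negative interactions throughout. All 39 tested of 40 listed genes were negative, and the median was -1.14. At an unadjusted p under 0.05 there were 26 negative ones, against 8.28% of all genes tested. In control mice 29 of the 39 rose with LPS, against 10.8% of all genes tested, and the median difference was 1.07. In GW mice 4 of the 39 rose, where 4.45% of all genes tested rose, and the median was 0.0912. The 4 became 1 without GW-PBS replicate 1, GW-LPS replicate 2 or GW-LPS replicate 4, and 2 without GW-PBS replicate 4. Summed over the list, the level was 2004, 1384 and 1535 CPM in GW-LPS, 1216, 1339.5, 1305 and 1102 CPM in GW-PBS, 4559.6, 2154, 2483 and 3004 CPM in Ctrl-LPS and 1348, 1171, 1295 and 1113 CPM in Ctrl-PBS. Every Ctrl-LPS library lay above every other library, and Ctrl-LPS replicate 1 was the highest. The GW-LPS sums lay above those of the PBS libraries by less than the Ctrl-LPS sums did. Without the 3 neutrophil-rich libraries 38 of 39 were negative and 22 had an unadjusted p under 0.05, while 22 rose in control mice and 2 in GW mice. In bulk libraries fewer responding cells and less RNA per cell cannot be told apart.

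Rtp4, an interferon-induced chaperone gene of the receptor transporter family (ENSMUSG00000033355, GRCm38 chromosome 16, 23520291 to 23614222), had 66.7, 42.2 and 36.2 CPM in GW-LPS, 57.6, 34.3, 52.3 and 37.4 CPM in GW-PBS, 267, 98.4, 114 and 164 CPM in Ctrl-LPS and 50.6, 44.6, 29.2 and 33.5 CPM in Ctrl-PBS. The Ctrl-LPS libraries were all above every other library, and the other 3 groups overlapped. The LPS difference was 0.0912 ± 0.30 in GW mice and 2.03 ± 0.28 in control mice (log2, SE), the second of which passed, and the interaction was -1.93 ± 0.41 (edgeR adjusted p = 0.211). DESeq2 and limma voom both called it (adjusted p = 0.00682 and 0.0237).

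Oasl2, which encodes an interferon-induced relative of the 2'-5'-oligoadenylate synthetases, had 47.6, 40.2 and 28.04 CPM in GW-LPS, 27.9, 37.001, 33.1 and 21.002 CPM in GW-PBS, 237, 78.5, 87.2 and 128 CPM in Ctrl-LPS and 34.3, 26.9, 26.5 and 22.2 CPM in Ctrl-PBS. Here too each Ctrl-LPS library exceeded all others. The LPS difference was 0.38 ± 0.33 in GW mice and 2.27 ± 0.32 in control mice, and the interaction was -1.90 ± 0.45 (edgeR adjusted p = 0.24).

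Irf7, the transcription factor that amplifies type I interferon production, had 53.5, 40.3 and 31.02 CPM in GW-LPS, 27.97, 45.9, 29.8 and 21.95 CPM in GW-PBS, 231, 58.5, 77.8 and 115 CPM in Ctrl-LPS and 39.7, 26.1, 34.7 and 24.9 CPM in Ctrl-PBS. The groups again separated only for Ctrl-LPS, and replicate 1 was the highest. The interaction was -1.54 ± 0.50 (edgeR adjusted p = 0.353) and -1.01 without that library. Ifit3, an antiviral protein gene, had 39.7, 19.99 and 23.5 CPM in GW-LPS, 31.4, 53.7, 43.9 and 36.2 CPM in GW-PBS, 129, 40.7, 48.6 and 65.01 CPM in Ctrl-LPS and 49.98, 46.4, 30.4 and 38.1 CPM in Ctrl-PBS. The LPS groups did not overlap, but Ctrl-LPS overlapped with both PBS groups. Its interaction was -1.35 ± 0.44 (edgeR adjusted p = 0.353), with no response called in either arm, and -0.89 without Ctrl-LPS replicate 1. Ifit3 and Ifit3b are near-identical, so the split of reads between them is uncertain.

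Promoters of 4 genes are shown because they carry the letters of the interferon-stimulated response element. The stretches are from RefSeq (GRCm38.p6), 5' to 3' on the strand of the gene, and capitals mark matches to its core, read as GAAA, any 2 bases and GAAA, on either strand, where overlapping matches form 1 run. Isg15 (a ubiquitin-like modifier), Oas1a (an oligoadenylate synthetase) and B2m (the light chain of class I molecules) were chosen after their values were seen.
Isg15, chr4:156200855-156200916, minus strand: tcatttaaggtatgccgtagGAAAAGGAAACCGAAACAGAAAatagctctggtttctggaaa
Oas1a, chr5:120907526-120907565, minus strand: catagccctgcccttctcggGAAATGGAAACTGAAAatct
Ifit3, chr19:34583353-34583436, plus strand: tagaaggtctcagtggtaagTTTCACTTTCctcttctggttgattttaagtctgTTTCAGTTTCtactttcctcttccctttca
B2m, chr2:122147528-122147577, plus strand: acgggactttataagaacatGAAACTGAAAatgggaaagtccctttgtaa

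The Isg15 stretch runs from 98 to 37 bases before the start and holds 3 overlapping matches. The Oas1a stretch ends 1 base before the start and holds 2 overlapping matches, and the Ifit3 stretch holds 2 separate ones. Isg15 averaged 8.87 ± 3.13 CPM in GW-LPS, 10.5 ± 2.24 CPM in GW-PBS, 25.7 ± 17.97 CPM in Ctrl-LPS and 8.42 ± 0.929 CPM in Ctrl-PBS (SD), with an interaction of -1.85 ± 0.52. Oas1a had an interaction of -1.55 ± 0.47 and B2m of -1.24 ± 0.38, and neither passed (edgeR adjusted p = 0.35 and 0.35).

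The core was searched on both strands in windows from 250 bases before to 50 bases after the gene start. It occurred in 1079 of 27025 (3.99%) of all windows and in 449 of 11295 (3.98%) of tested genes with a window. Among interferon-stimulated genes 16 of 29 (55.2%) held it, and among class I genes 5 of 17 (29.4%). It was also in 7 of 59 (11.9%) ribosomal protein genes and 2 of 24 (8.33%) disease-associated genes. Of negative genes at an unadjusted p under 0.05 70 of 942 (7.43%) held it, or 49 of 900 (5.44%) once members of the class I list and of the 4 interferon lists (stimulated genes, GTPases, Ifi200 family, receptors and regulators) were left out, against 17 of 535 (3.18%) of the positive ones. A second motif of the NF-kB type (GGGA, any 2 bases and TTCC) was in 21 of 942 (2.23%) of the negative and 13 of 535 (2.43%) of the positive genes. All windows had it in 441 of 27025 (1.63%) and tested genes in 198 of 11295 (1.75%). By list it was in 3 of 29 (10.3%) interferon-stimulated, 1 of 17 (5.88%) class I, 2 of 24 (8.33%) disease-associated and 1 of 59 (1.69%) ribosomal protein genes. The printed B2m stretch also holds a match to this second motif, left in lower case, 126 bases before the start. These are matches of letters and not shown to be bound.

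Genes upstream of the interferon-stimulated list had no shared direction. Of 16 receptors, kinases and regulators of the interferon pathway 8 were negative, 1 of them at an unadjusted p under 0.05, and the median was 0.00582, of either sign when 1 library was left out. Irf3, the factor downstream of TRIF, had -0.34 ± 0.15 and the receptor kinase gene Jak1 0.58 ± 0.28 (edgeR adjusted p = 0.369 and 0.399). Irf3 had 56.7 CPM in GW-LPS, 56.2 in GW-PBS, 61.2 in Ctrl-LPS and 47.8 in Ctrl-PBS on average.

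Interferon-inducible GTPases, which attack vacuoles of intracellular pathogens, were negative in 13 of 15 cases with a median of -0.36, 4 at an unadjusted p under 0.05. With 1 library left out the median ran from -0.56 (without GW-PBS replicate 1) to -0.13 (without GW-LPS replicate 3), and 9 of 15 were negative when GW-LPS replicate 3 was left out. Gbp2, a guanylate-binding protein gene, had -1.14 ± 0.31 and Igtp -0.52 ± 0.19. Among the Ifi200 family and other cytosolic DNA sensing genes 9 of 12 were negative, 4 at that p, with a median of -0.75. Without Ctrl-LPS replicate 1 the median was -0.42 and 2 were at that p. The list was mixed in its DNA sensors, as Aim2 had 0.0137 ± 0.17 and Tmem173, the gene of STING, -0.24 ± 0.21. Both were chosen after their values were seen.

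Ifi204 (p204), a DNA-binding member of the Ifi200 family (ENSMUSG00000073489, GRCm38 chromosome 1, 173747293 to 173766943), had 71.3, 60.6 and 54.8 CPM in GW-LPS, 22.5, 33.6, 37.8 and 26.7 CPM in GW-PBS, 194, 113, 109 and 159 CPM in Ctrl-LPS and 28.6, 21.7, 21.6 and 26.5 CPM in Ctrl-PBS. Both LPS groups lay above both PBS groups, and every Ctrl-LPS library lay above every GW-LPS library. It rose with LPS in either arm, by 1.05 ± 0.23 in GW mice and 2.55 ± 0.23 in control mice, and its interaction was -1.503 ± 0.32 (edgeR adjusted p = 0.211). Its paralog Ifi211 had -1.67 ± 0.47, or -1.07 without Ctrl-LPS replicate 1. Genes of this family are similar in sequence, so their reads may be shared.

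Class I antigen presentation genes, which display peptides to CD8 T cells, were negative in 20 of 21 cases, 16 of them at an unadjusted p under 0.05, with a median of -0.91. In GW mice 7 of them fell with LPS and none rose, and in control mice 8 rose and none fell. Of all genes tested 5.07% fell in GW mice and 10.8% rose in control mice. The rises in control mice numbered 2 without Ctrl-LPS replicate 1, 4 or 5 without Ctrl-LPS replicate 4, Ctrl-PBS replicates 1, 3 or 4, or GW-LPS replicates 2 or 4, and 2 without the 3 neutrophil-rich libraries. The falls in GW mice numbered 3 without GW-LPS replicate 3 and 4 without replicate 4 or GW-PBS replicate 3.

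H2-K1, a classical class I heavy chain gene (ENSMUSG00000061232, GRCm38 chromosome 17, 33996017 to 34000347), had 607, 416 and 522 CPM in GW-LPS, 1161, 906, 1332 and 725 CPM in GW-PBS, 1534, 736, 724 and 929 CPM in Ctrl-LPS and 722, 745, 741 and 696 CPM in Ctrl-PBS. The GW-LPS libraries were the lowest of all 15 and overlapped with none, whereas Ctrl-LPS overlapped with Ctrl-PBS. It fell by 1.00 ± 0.23 in GW mice, did not pass in control mice (0.43 ± 0.21), and had an interaction of -1.43 ± 0.31 (edgeR adjusted p = 0.211). H2-D1, the other classical heavy chain gene tested, had -1.20 ± 0.26, with -0.57 ± 0.19 in GW mice, which did not pass, and 0.63 ± 0.17 in control mice, a rise that was lost without Ctrl-LPS replicate 1. Reads of class I genes may be split between near-identical copies. Transporter and immunoproteasome genes on the same list, Tap1 (-0.68 ± 0.27) and Psmb8 (-0.90 ± 0.29), were of the same sign and were chosen after their values were seen.

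Class II genes, which display peptides to CD4 T cells, mostly fell with LPS in both arms. Of 12 genes 8 fell with LPS in GW mice and 7 in control mice, against 5.07% and 9.62% of all genes tested. The median interaction was -0.19, from -0.36 (without GW-PBS replicate 4) to -0.11 (without GW-LPS replicate 4). H2-Aa, a class II alpha chain gene, fell by 2.87 ± 0.47 in GW mice and by 2.80 ± 0.42 in control mice, and its interaction of -0.074 ± 0.57 changed sign between settings. Cd74, the invariant chain gene, had -0.53 ± 0.51, or -0.20 without Ctrl-LPS replicate 1 and -0.28 without GW-LPS replicate 2. The peptide-loading genes H2-DMa (-0.83 ± 0.28) and H2-DMb1 (-0.57 ± 0.23) had the smallest p of this list, at edgeR adjusted p = 0.353 and 0.361. H2-DMb1 had -0.37 without GW-PBS replicate 1.

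**Figure D3:**
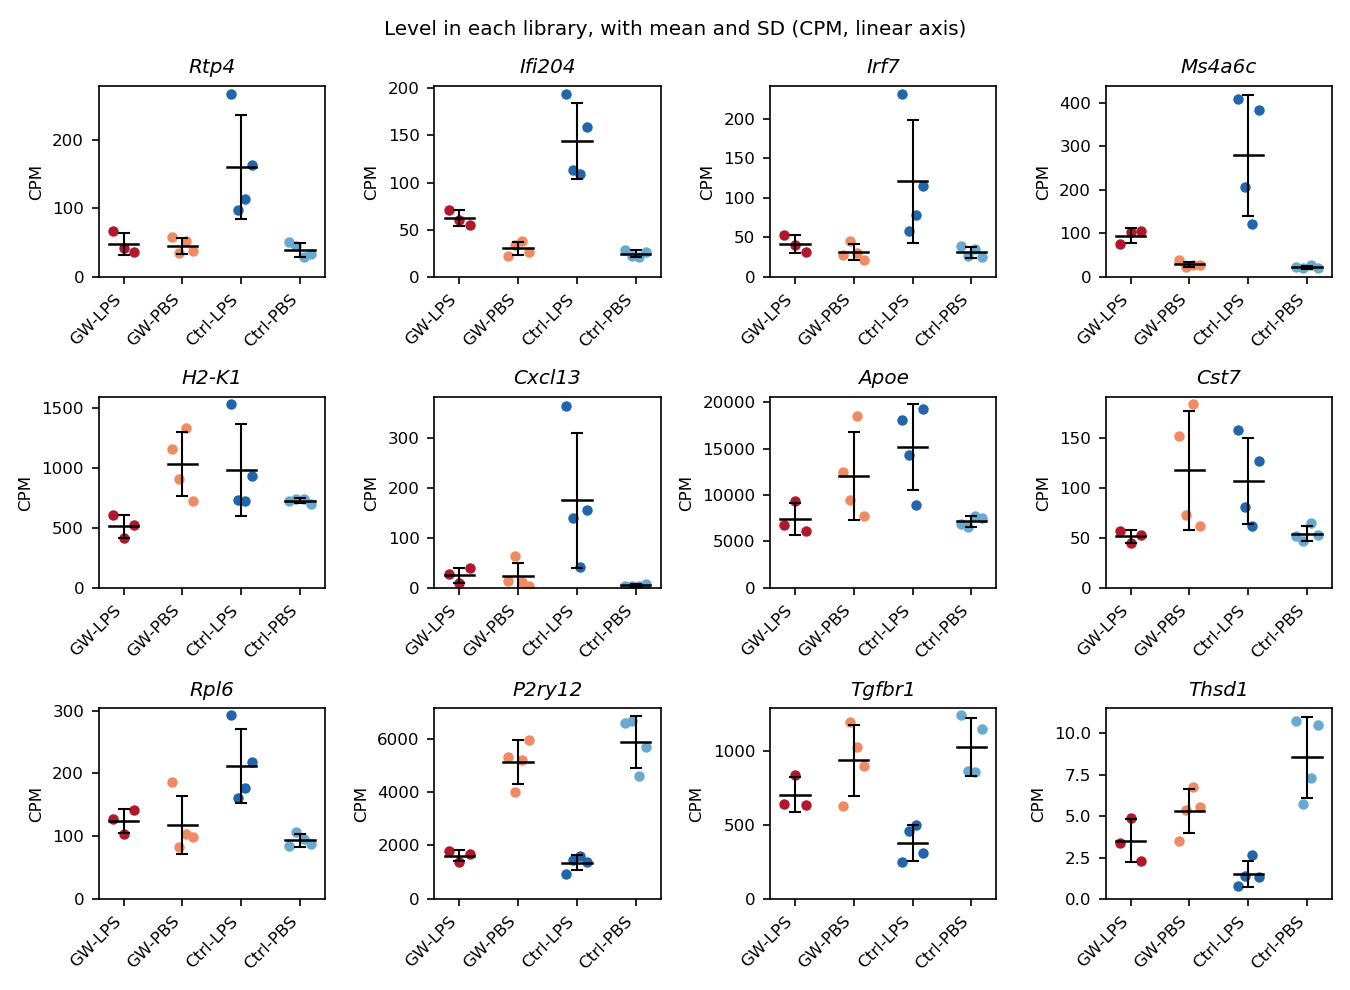
CPM of 12 genes in each of the 15 libraries (points), with the group mean and SD (lines), on linear axes from 0. Ctrl-LPS stands above the other groups for Rtp4, Ifi204, Irf7 and Ms4a6c, GW-LPS stands below them for H2-K1, and Ctrl-LPS stands below them for Tgfbr1.

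Among the mediators, chemokines were negative in 16 of 21 tested cases, 10 at an unadjusted p under 0.05, with a median of -0.96. In control mice 7 rose with LPS, or 3 without Ctrl-LPS replicate 1, and in GW mice none rose and 2 fell. Of all genes tested 10.8% rose in control mice, and 4.45% rose and 5.07% fell in GW mice. Cxcl13, the ligand of CXCR5, a chemokine receptor of B cells (ENSMUSG00000023078, GRCm38 chromosome 5, 95956951 to 95961068), had 27.04, 10.2 and 39.6 CPM in GW-LPS, 14.7, 63.2, 12.1 and 4.004 CPM in GW-PBS, 364, 141, 41.7 and 155 CPM in Ctrl-LPS and 3.41, 3.74, 4.85 and 8.33 CPM in Ctrl-PBS. Ctrl-PBS was uniformly low, and GW-PBS replicate 2 was above the lowest Ctrl-LPS library. It rose by 5.11 ± 0.74 in control mice and had 0.13 ± 0.67 in GW mice, and the interaction was -4.98 ± 1.00 (edgeR adjusted p = 0.211). About 2.78 log2 units of it lay in the lower level after LPS and 2.21 in the higher level after PBS.

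Cxcl16, a membrane-bound chemokine that also takes up oxidised lipoprotein, had 145, 133 and 134 CPM in GW-LPS, 227, 213, 263 and 174 CPM in GW-PBS, 327, 175, 159.8 and 157 CPM in Ctrl-LPS and 153, 150.4, 149.9 and 153 CPM in Ctrl-PBS. The GW-LPS libraries were below all others. It fell in GW mice (-0.68 ± 0.20), a call lost without any 1 of 5 GW libraries, and did not pass in control mice (0.43 ± 0.19), with an interaction of -1.11 ± 0.28 (edgeR adjusted p = 0.242). Cxcl10, an interferon-induced chemokine gene, had 12.6, 3.99 and 11.8 CPM in GW-LPS, 22.3, 27.8, 24.4 and 12.99 CPM in GW-PBS, 74.1, 14.4, 11.02 and 8.695 CPM in Ctrl-LPS and 10.5, 18.4, 16.6 and 14.8 CPM in Ctrl-PBS. One library, Ctrl-LPS replicate 1, stood far above the rest of its group, which overlapped with GW-LPS. Its interaction of -2.05 ± 0.75 became -0.80 without that library.

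Cytokine and NF-kB genes were negative in 25 of 33 cases, with 7 at an unadjusted p under 0.05 (2 without Ctrl-LPS replicate 1) and a median of -0.39. The median was -0.19 without Ctrl-LPS replicate 1 and -0.25 without GW-PBS replicate 2. Tnf, the gene of tumour necrosis factor, had 66.2, 96.2 and 80.8 CPM in GW-LPS, 62.1, 66.4, 92.9 and 36.5 CPM in GW-PBS, 296, 111, 80.6 and 92.7 CPM in Ctrl-LPS and 38.1, 36.2, 73.7 and 37.2 CPM in Ctrl-PBS. It rose in control mice (1.65 ± 0.40) and did not pass in GW mice (0.33 ± 0.42). The interaction was -1.32 ± 0.58 (edgeR adjusted p = 0.366) and -0.70 without Ctrl-LPS replicate 1, whose level was the highest of all. Il1b, the gene of interleukin 1 beta, had an interaction of -0.38 ± 0.82, which was 0.20 without Ctrl-LPS replicate 1 and -1.39 without Ctrl-PBS replicate 3, the 2 libraries in which its level was highest. The smallest p of the list belonged to Il27, a cytokine subunit gene, with -1.26 ± 0.44, and to Il1rn, the interleukin 1 receptor antagonist gene, with -3.19 ± 1.18. Il1rn had -0.96 without Ctrl-LPS replicate 1, where its level was 131 CPM against at most 36.01 CPM elsewhere. In that library and in Ctrl-PBS replicate 3 the neutrophil and monocyte marker sums were also raised, and their part in these values was not tested beyond leaving the libraries out.

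Receptors and adaptors that sense LPS were mixed in direction. Of 32 Toll-like receptor signalling genes 21 were positive and 11 negative, but 1 positive and 4 negative had an unadjusted p under 0.05. The median was 0.19, from 0.14 (without GW-LPS replicate 3) to 0.31 (without GW-PBS replicate 2). Tlr5, the flagellin receptor gene, had 1.28 ± 0.45, and Tlr2, the lipoprotein receptor gene, had -0.85 ± 0.32, or -0.47 without Ctrl-LPS replicate 1. Tlr4 itself had 0.53 ± 0.26 and its co-receptor gene Cd14 -1.02 ± 0.38 (edgeR adjusted p = 0.4 and 0.353), both chosen after their values were seen. Among 27 negative regulators of inflammatory signalling 18 were negative and the median was -0.33, from -0.52 (without Ctrl-PBS replicate 3) to -0.0878 (without Ctrl-LPS replicate 1). Socs3, an inhibitor of cytokine receptor signalling, rose in GW mice by 2.02 ± 0.30 and in control mice by 2.72 ± 0.29, with an interaction of -0.70 ± 0.40 (edgeR adjusted p = 0.452), or -0.39 without GW-PBS replicate 2. The checkpoint receptor gene Lag3 fell in GW mice (-0.72 ± 0.16) and had -0.13 ± 0.15 in control mice. Socs2, another member of the Socs family, had -2.38 ± 0.89, or -0.96 without Ctrl-LPS replicate 1.

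Genes that microglia and macrophages switch on strongly with LPS were negative in 20 of 23 cases, 10 at an unadjusted p under 0.05, with a median of -0.87. With LPS 7 of them rose in GW mice and 14 in control mice, against 4.45% and 10.8% of all genes tested. This median moved between -2.45 (without Ctrl-PBS replicate 3) and -0.39 (without Ctrl-LPS replicate 1). Saa3, an acute phase serum amyloid gene, had 55.4, 28.4 and 28.8 CPM in GW-LPS, 2.19, 12.2, 1.82 and 0.028002 CPM in GW-PBS, 471, 140.4, 57.2 and 278 CPM in Ctrl-LPS and 0, 0, 0.404 and 0 CPM in Ctrl-PBS. Of the Ctrl-PBS libraries 3 were at 0, while all 4 GW-PBS libraries had counts. The fitted interaction of -7.96 ± 1.67 therefore depends on levels near 0 and ran from -12.78 to -6.37 when 1 library was left out. After LPS alone the difference of GW from control mice was -2.66 ± 0.98.

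Ms4a6c, a membrane protein gene of the MS4A family (ENSMUSG00000079419, GRCm38 chromosome 19, 11469366 to 11482192), had 75.2, 102 and 106 CPM in GW-LPS, 37.7, 23.5, 28.3 and 26.4 CPM in GW-PBS, 407, 206, 121 and 384 CPM in Ctrl-LPS and 22.3, 21.1, 26.4 and 19.4 CPM in Ctrl-PBS. All LPS libraries lay above all PBS libraries, and all Ctrl-LPS libraries above all GW-LPS libraries. It rose by 1.71 ± 0.30 in GW mice and 3.65 ± 0.30 in control mice, with an interaction of -1.94 ± 0.41 (edgeR adjusted p = 0.211). Ly6i, a Ly6 family surface protein gene and the gene of smallest p, had 1.28, 1.67 and 1.0995 CPM in GW-LPS, 5.01, 3.76, 3.805 and 1.76 CPM in GW-PBS, 17.2, 4.44, 2.14 and 5.01 CPM in Ctrl-LPS and 1.097, 1.999, 1.18 and 1.51 CPM in Ctrl-PBS. Its levels were low, and Ctrl-LPS overlapped with GW-PBS. It rose in control mice (2.31 ± 0.48), had -1.41 ± 0.52 in GW mice, which did not pass, and an interaction of -3.72 ± 0.71, with an uncertain share of reads among Ly6 paralogs. Of the remaining genes of smallest p, Lgals3bp, a secreted glycoprotein gene that binds galectin 3, had -1.44 ± 0.32 and Cd72, an inhibitory lectin receptor gene best known from B cells, had -1.84 ± 0.40, and both had risen in control mice only (1.86 ± 0.22 and 1.25 ± 0.27, against 0.42 ± 0.23 and -0.59 ± 0.30 in GW mice).

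Disease-associated microglia genes, a programme of lipid handling and lysosomal genes that microglia show around plaques and in ageing, were negative in 31 of 31 cases. Of these 17 had an unadjusted p under 0.05, and the median was -0.83. In GW mice 14 fell with LPS (9 without GW-LPS replicate 4) and 1 rose, while in control mice 9 fell and 9 rose. Of all genes tested 5.07% fell and 4.45% rose in GW mice, and 9.62% fell and 10.8% rose in control mice. All 31 genes had a value above 0 for GW over control mice after PBS, and 24 had one below 0 after LPS, although no single gene passed in either comparison. Over all genes tested 8815 of 16554 were above 0 after PBS and 8427 below 0 after LPS. Other lists were also mostly above 0 after PBS, with 78 of 80 ribosomal protein, 50 of 54 oxidative phosphorylation and 18 of 21 class I genes.

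Apoe, the lipid carrier apolipoprotein E (ENSMUSG00000002985, GRCm38 chromosome 7, 19696109 to 19699188), had 6743, 9318 and 6178 CPM in GW-LPS, 12449.6, 9510.4, 18517 and 7769 CPM in GW-PBS, 18101, 14328, 8907 and 19301 CPM in Ctrl-LPS and 6832, 6549, 7742 and 7560.2 CPM in Ctrl-PBS. GW-PBS spread widely, with replicate 3 near the highest Ctrl-LPS libraries and replicate 4 near Ctrl-PBS. It rose in control mice (1.08 ± 0.26), did not pass in GW mice (-0.70 ± 0.28), and had an interaction of -1.78 ± 0.39 (edgeR adjusted p = 0.211, and DESeq2 adjusted p = 0.00957). Cst7, which encodes the cathepsin inhibitor cystatin F, had 56.96, 44.9 and 52.6 CPM in GW-LPS, 151, 73.3, 184 and 61.997 CPM in GW-PBS, 158, 81.3, 62.04 and 127 CPM in Ctrl-LPS and 52.4, 47.03, 64.8 and 53.4 CPM in Ctrl-PBS. The GW-LPS libraries lay below every GW-PBS and Ctrl-LPS library and overlapped with Ctrl-PBS. It fell in GW mice (-1.19 ± 0.36) and rose in control mice (0.98 ± 0.32), and each call was lost without any 1 of several libraries. The interaction was -2.17 ± 0.48 (edgeR adjusted p = 0.211), and -1.87 without GW-PBS replicate 3, where its level was highest. Trem2, the lipid receptor that drives this programme, fell in both arms (-1.32 ± 0.21 in GW mice and -0.82 ± 0.19 in control mice) and had an interaction of -0.50 ± 0.27 (edgeR adjusted p = 0.433), or -0.28 without GW-PBS replicate 1.

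Lipid handling genes as a group were not one-sided, with 13 of 25 negative and a median of -0.0327, from -0.22 (without Ctrl-PBS replicate 3) to 0.0494 (without GW-LPS replicate 4). Fabp5, a fatty acid-binding protein gene, had -2.26 ± 0.52 and Plin2, a lipid droplet coat gene, -1.06 ± 0.37 (edgeR adjusted p = 0.24 and 0.353). Plin2 rose in both arms, by 0.92 ± 0.27 in GW mice, a call lost in 6 of the 16 settings that leave out libraries, and by 1.98 ± 0.26 in control mice. Complement genes divided as well, with 11 of 16 negative and a median of -0.29, from -0.47 (without GW-LPS replicate 3) to -0.17 (without GW-PBS replicate 3). The chains of C1q, which starts the classical pathway and tags synapses, had -1.05 ± 0.25 for C1qb and -0.92 ± 0.23 for C1qc, while C5ar2, a receptor of C5a, had 0.82 ± 0.29 and was chosen after its values were seen.

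C1qb had 13801, 12662 and 14641 CPM in GW-LPS, 19282, 11403, 12814 and 13645 CPM in GW-PBS, 26521, 19218, 17937 and 28405 CPM in Ctrl-LPS and 10936, 14002, 10638 and 10905 CPM in Ctrl-PBS. Ctrl-LPS was above all other libraries except GW-PBS replicate 1, which reached into its range. In control mice it rose (0.99 ± 0.17), and in GW mice it had -0.0603 ± 0.18. Lysosome and phagocytosis genes had a median of -0.16, from -0.31 (without GW-PBS replicate 4) to -0.15 (without GW-PBS replicate 1), with 24 of 35 negative and 10 at an unadjusted p under 0.05. Ctss, the cathepsin that trims the invariant chain, had -0.91 ± 0.21 and Npc2, which carries lysosomal cholesterol, -0.86 ± 0.24 (edgeR adjusted p = 0.24 and 0.311). Ctss rose in control mice (0.80 ± 0.15) and was at -0.11 ± 0.16 in GW mice.

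Homeostatic microglia genes, which mark resting cells and fall on activation, leaned the other way. Of 26 genes 20 were positive and 6 negative, with 6 positive and 0 negative at an unadjusted p under 0.05 and a median of 0.32. The 6 became 11 without Ctrl-LPS replicate 3 and 2 or 3 without any 1 of 7 libraries (Ctrl-LPS replicates 1 and 4, Ctrl-PBS replicates 1 and 4, GW-LPS replicates 2 and 4, GW-PBS replicate 1). With LPS 10 fell in GW mice and 16 in control mice, against 5.07% and 9.62% of all genes tested. The first count was 6 without GW-PBS replicate 1 or GW-LPS replicate 4. For a gene that fell in control mice, a positive interaction means a smaller fall, no fall or a rise in GW mice. The list summed to 55813, 46412 and 53920 CPM in GW-LPS and 36055, 46515, 52164 and 42936 CPM in Ctrl-LPS. The highest of these were GW-LPS replicates 2 and 4 and Ctrl-LPS replicate 3, the libraries with high heat shock sums. What that contributes to the values of this list was not tested. Tgfbr1, a receptor of the TGF-beta signal that maintains microglial identity (ENSMUSG00000007613, GRCm38 chromosome 4, 47353222 to 47414931), had 641, 841 and 635 CPM in GW-LPS, 626, 1198, 1026 and 898 CPM in GW-PBS, 248, 458, 503 and 312 CPM in Ctrl-LPS and 1242, 868, 855 and 1148 CPM in Ctrl-PBS. Ctrl-LPS lay below every other library, and GW-LPS overlapped with GW-PBS. It fell in control mice (-1.44 ± 0.23), did not pass in GW mice (-0.41 ± 0.25), and had an interaction of 1.03 ± 0.34 (edgeR adjusted p = 0.353). Mef2a, a transcription factor gene of microglia, had 0.70 ± 0.28.

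Among the index genes, P2ry12, a purinergic receptor of resting microglia, had 1787, 1397 and 1682 CPM in GW-LPS, 5305, 4009.8, 5196 and 5958 CPM in GW-PBS, 943, 1469, 1612 and 1388 CPM in Ctrl-LPS and 6565, 6672, 4582 and 5688 CPM in Ctrl-PBS. Both LPS groups lay far below both PBS groups and overlapped with each other. It fell in either arm (-1.66 ± 0.21 in GW mice and -2.12 ± 0.20 in control mice), with an interaction of 0.46 ± 0.28 (edgeR adjusted p = 0.47). Cx3cr1 had 0.32 ± 0.21 (0.54 without Ctrl-LPS replicate 3 and 0.49 without GW-LPS replicate 3) and fell in control mice. Tmem119, a membrane protein gene that marks microglia, had -0.032 ± 0.16, a value near 0 whose sign differed between settings.

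The positive genes of smallest p had other functions. Thsd1, a membrane protein gene with a thrombospondin type 1 domain, had 3.37, 4.91 and 2.29 CPM in GW-LPS, 3.51, 5.403, 6.74 and 5.54 CPM in GW-PBS, 0.807, 1.36, 2.64 and 1.32 CPM in Ctrl-LPS and 10.7, 5.74, 7.33 and 10.5 CPM in Ctrl-PBS. Ctrl-LPS was below both PBS groups, and GW-LPS overlapped with GW-PBS and with Ctrl-LPS. It fell in control mice (-2.47 ± 0.32) and had -0.59 ± 0.32 in GW mice, an interaction of 1.88 ± 0.44 (edgeR adjusted p = 0.24). Mmgt1, a subunit gene of the membrane protein insertion complex of the endoplasmic reticulum, had 1.02 ± 0.25, and Prickle1, a planar cell polarity gene, 1.504 ± 0.39. DESeq2 and limma voom both called these last 2. Ctnnd2, which encodes delta-catenin, fell in both arms, with -1.38 ± 0.31 in GW mice (lost without GW-LPS replicate 2) and -2.89 ± 0.30 in control mice, and had an interaction of 1.51 ± 0.42. The zinc finger gene Zfp873 (0.94 ± 0.25), the disulfide isomerase gene Tmx3 (0.77 ± 0.21), the fucose metabolism gene Fpgt (0.80 ± 0.23) and the Polycomb gene Bmi1 (0.69 ± 0.19) had smaller values.

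For 2 positive genes 1 library raised the value. Atp2a3, a calcium pump gene of the endoplasmic reticulum, had 89.4 CPM in Ctrl-PBS replicate 3 against at most 27.4 CPM elsewhere, and its interaction of 2.87 ± 0.76 became 1.66 without that library. Mfsd6, a transporter gene, had 12.98 CPM there against at most 6.605 CPM elsewhere, and its interaction of 2.74 ± 0.66 became 1.90. The neutrophil marker sum was highest in the same library. Cell cycle genes depended on it too. Of 36 genes 30 were positive with a median of 0.46, against -0.19 without Ctrl-PBS replicate 3 and at most 0.77 with any other library left out, and 1, the cyclin gene Ccnb1 (2.27 ± 0.96), had an unadjusted p under 0.05. Its value was 1.26 without that library and 3.40 without Ctrl-LPS replicate 1. Rrm1, a subunit gene of ribonucleotide reductase, had 0.71 ± 0.40.

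Ribosomal protein genes had near-uniform negative values. Of 80 genes 79 were negative, 62 at an unadjusted p under 0.05, and the median was -0.93. In control mice 47 rose with LPS, or 11 without Ctrl-LPS replicate 1 and 19 to 27 without Ctrl-LPS replicate 4 or Ctrl-PBS replicates 1, 3 or 4. In GW mice none rose. Of all genes tested 10.8% rose in control mice and 4.45% in GW mice. Their summed level was 8012, 6471 and 8849 CPM in GW-LPS, 11084, 5534, 6837 and 6871 CPM in GW-PBS, 13141, 8018, 8629.9 and 11507 CPM in Ctrl-LPS and 5398, 7217, 6611 and 6044 CPM in Ctrl-PBS. GW-PBS replicate 1 and Ctrl-LPS replicates 1 and 4 were the 3 highest. The number at an unadjusted p under 0.05 was 14 when GW-PBS replicate 1 was left out, 24 when Ctrl-LPS replicate 1 was, 21 when GW-LPS replicate 3 was and 2 without the 3 neutrophil-rich libraries.

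Rpl6, a protein of the large ribosomal subunit, had 127, 104 and 142 CPM in GW-LPS, 186, 82.5, 103 and 98.5 CPM in GW-PBS, 293, 161, 177 and 218 CPM in Ctrl-LPS and 84.3, 106, 94.97 and 87.2 CPM in Ctrl-PBS. GW-PBS replicate 1 lay within the range of Ctrl-LPS, and the other GW and Ctrl-PBS libraries lay below it. The interaction was -1.11 ± 0.35 (edgeR adjusted p = 0.353), and -0.78 without GW-PBS replicate 1. Rpl3 had -0.79 ± 0.24 and Rpl4 -0.74 ± 0.26, and both had risen in control mice. Ribosomal protein genes have many processed pseudogenes, so the share of reads each received is uncertain.

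Lists of other abundant housekeeping genes were of the same sign. The median was -0.65 over 54 oxidative phosphorylation genes (52 negative, 15 at an unadjusted p under 0.05), -0.50 over 34 translation and ribosome biogenesis genes, -0.56 over 24 proteasome genes and -0.58 over 23 glycolysis and hypoxia genes. Without GW-PBS replicate 1 the oxidative phosphorylation median was -0.35, and the 15 genes became 2. They became 38 without GW-PBS replicate 2 and 36 without Ctrl-LPS replicate 2, and 3 to 9 without any 1 of 6 others. Without the 3 neutrophil-rich libraries the oxidative phosphorylation median was -0.26 with 0 genes at that p, the translation median -0.24 and the proteasome median -0.23, and without GW-PBS replicate 1 the proteasome median was -0.35. The translation elongation factor gene Eef1a1 had -0.96 ± 0.28, the nucleolar gene Npm1 -0.77 ± 0.25, the succinate dehydrogenase genes Sdhb and Sdhd -0.77 ± 0.27 and -0.68 ± 0.25, the proteasome genes Psmd4 and Psma6 -0.58 ± 0.21 and -0.79 ± 0.29, and the glycolytic gene Eno1 -0.66 ± 0.23. Bnip3, a mitochondrial hypoxia-induced gene, fell in GW mice (-0.80 ± 0.17) and had -0.0567 ± 0.16 in control mice.

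Stress genes had values around that of all genes. The median was -0.0537 over 23 endoplasmic reticulum stress and heat shock genes and -0.16 over 24 immediate early genes, and both changed sign with single libraries left out. There was 1 gene of each list at an unadjusted p under 0.05. Xbp1, a regulator of the unfolded protein response, had -0.32 ± 0.17 and Herpud1, a degradation factor of the endoplasmic reticulum, -0.38 ± 0.17. The immediate early genes of smallest p were Gem, a small GTPase gene (-0.96 ± 0.40), and Ier3, a gene of apoptosis control (-1.15 ± 0.58, or -0.58 without Ctrl-LPS replicate 1 and -1.74 without GW-LPS replicate 3). Among markers of other cells the neutrophil list had a median of 1.64 (4 of 18 negative, 0 at an unadjusted p under 0.05), the monocyte list 0.35, the border-associated macrophage list 0.12, the astrocyte list -0.021 and the lymphocyte and NK cell list -0.13. The other medians were negative, at -0.73 for neurons (2 of 9 genes negative at an unadjusted p under 0.05), -0.73 for erythroid cells (0 of 7), -0.40 for endothelial and mural cells (2 of 12) and -0.29 for oligodendrocytes (0 of 12). The part of these cells in the lists above was not tested.

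**Figure D4:**
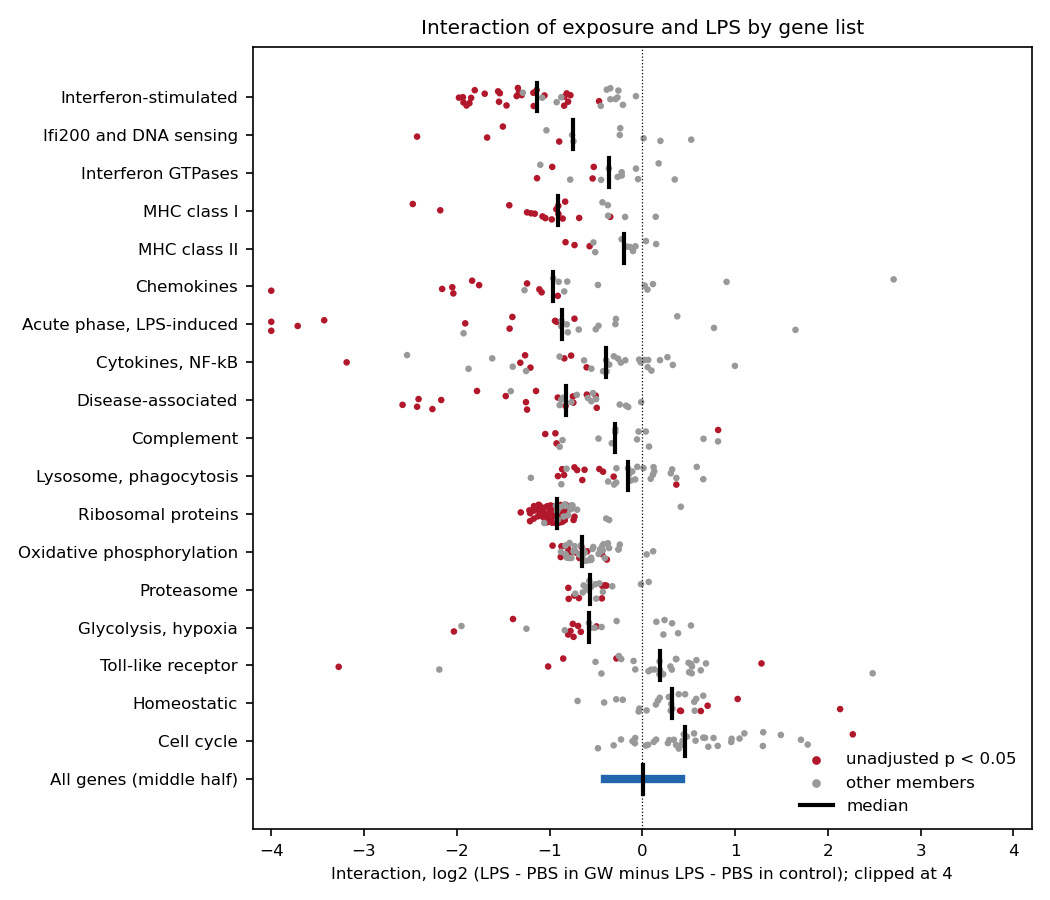
Interaction of each tested member of 18 gene lists (points, log2, values beyond 4 drawn at 4), with the list median (black bar) and, below, the middle 50% and median of all 16554 genes. Red points have an unadjusted p under 0.05, and no gene passed the adjusted threshold in edgeR. Interferon-stimulated, class I, disease-associated and ribosomal protein genes lie left of 0 nearly throughout.

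The 42 genes called by both DESeq2 and limma voom included members of several of these groups. Among them were the interferon-stimulated genes Rtp4, Oasl2, Usp18 and Xaf1, the class I genes H2-K1, H2-D1, H2-M3 and H2-T23, and the disease-associated genes Apoe, Cst7, Fabp5 and Fth1. H2-Q5, a class I heavy chain gene outside the list used here, was called too. Ferritin stood out by copies. The light chain gene Ftl1 (-1.13 ± 0.28) and its pseudogenes Ftl1-ps1 (-1.65 ± 0.41) and Ftl2-ps (-1.59 ± 0.31) were called together with the heavy chain gene Fth1 (-1.47 ± 0.36), and reads may be shared among the copies. Il2rg, the common gamma chain of cytokine receptors, had -1.96 ± 0.46. On the positive side the 4 genes were Mmgt1, Prickle1, Npas1, a neuronal transcription factor gene (2.41 ± 0.57), and 1700066M21Rik. Genes of this paragraph that are not described above were named because both tools called them.

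A set of LPS-responsive genes can be taken from libraries outside the contrast. In CBD-treated GW mice 65 genes rose with LPS (0.393%) and 4 fell (0.0242%) in the same edgeR fit, using 7 libraries of which none is in the interaction. The calls still share the filter, scaling and estimate of spread of the fit to all 22 libraries, so the set is not fully independent. Of the 65 genes 38 (58.5%) had a negative interaction of exposure and LPS, against 49.5% of all genes tested. At an unadjusted p under 0.05 13 (20%) were negative and 2 (3.08%) positive, against 8.28% and 4.4% of all genes tested. The median was -0.11, against 0.00817 over all genes tested. The median LPS difference of the 65 genes was 0.52 in GW mice and 0.72 in control mice. Of them 18 and 34 rose there, where 4.45% and 10.8% of all genes tested rose. The set holds 1 interferon-stimulated gene and 8 cell cycle genes.

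Leaving out libraries kept the sign of the main list medians while their size moved. The interferon-stimulated median ran from -1.33 to -0.83, the class I median from -1.05 to -0.67, the disease-associated median from -0.99 to -0.59 and the homeostatic median from 0.25 to 0.52 when each of the 15 libraries was left out in turn. Without the 3 neutrophil-rich libraries they were -0.85, -0.58, -0.82 and 0.27, and the ribosomal protein median was -0.43. Those members were chosen with results of these libraries known, so a stable sign is a description of the list.

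**Figure D5:**
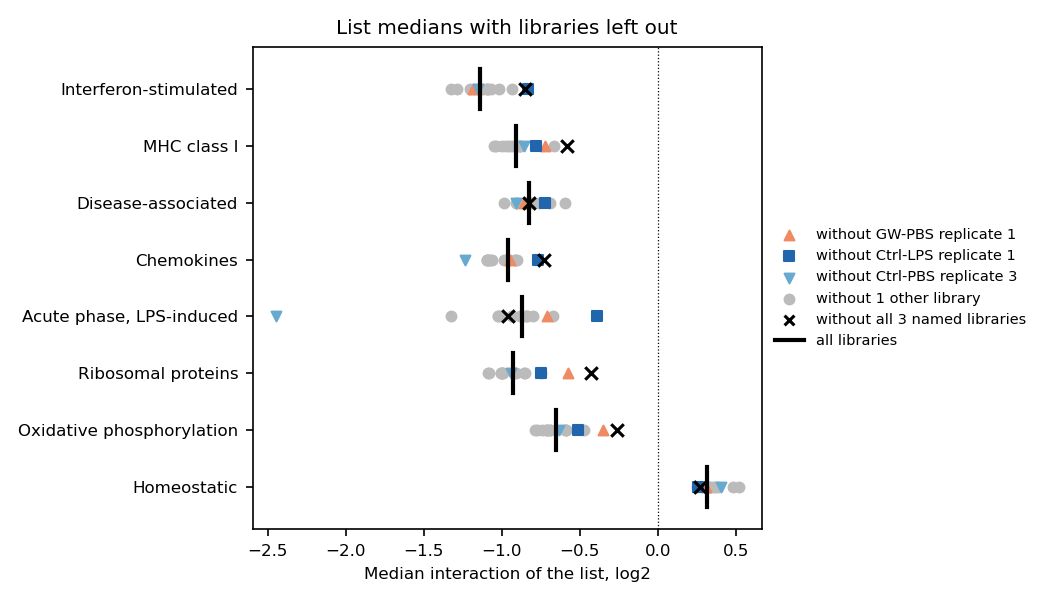
Median interaction of 8 gene lists (log2) with all libraries (black bar), without each single library (points, 3 libraries marked) and without those 3 together (cross). The acute phase list spans -2.45 to -0.39, and the interferon-stimulated list stays between -1.33 and -0.83.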

How the data were processed

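The deposited table holds whole-number read counts of 54532 genes in 22 libraries, made by the authors from reads aligned to GRCm38 (mm10), per the labels and the processing notes of the submitters. Aligner, counter and strand option were not given in the sources used here. Reads of overlapping, antisense or near-identical genes may thus be misassigned. Per the labels' protocols, RNA of integrity number 8.5 or higher was made into stranded poly(A) libraries and read as 150 bp pairs. Symbols turned into dates were restored for 27 genes, and 54495 identifiers were found in GENCODE M21, the source of coordinates.

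The test was edgeR's quasi-likelihood test (version 4.0.16, R 4.3.3), two-sided, on genes that filterByExpr kept. TMM scaled the libraries, all 22 entered 1 fit of 6 group means, and p was adjusted by Benjamini-Hochberg with a threshold of 0.05. Tested genes held at least 99.9% of counts in each library, and the common biological coefficient of variation was 0.352. CPM of single genes use TMM factors, and sums over lists use library totals. Values with ± are a log2 difference and its SE, or a mean CPM and its SD. The SE of edgeR was derived as the size of the log2 difference divided by the square root of its F statistic. It therefore restates the p-value and is not a separate estimate. Libraries of a group, taken in pairs, differed by a chi-square of 12.5 to 261 per degree of freedom, so none repeats another. Alternatives were RLE size factors, no filter, DESeq2 1.42.0, limma 3.58.1 (voom with quality weights), the 4 groups alone, the library number as a block, and libraries left out. The responses within arms were refitted without libraries as alternatives chosen after seeing the data. The interaction test of each of the 3 tools was tried on simulated counts in which 200 genes were changed in GW-LPS alone. The outcome is not given here, and it cannot tell which tool's calls hold in these data, where all groups may differ. Promoter windows are from RefSeq (GRCm38.p6), with figures from matplotlib 3.10.9.

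Named genes were, among protein-coding genes with a group mean of at least 5 CPM, the 12 negative and 10 positive ones of smallest interaction p, the 2 members of smallest p in each of 24 lists, and 14 index genes. Members, lists and rules were chosen with earlier results of these data known. Library numbers were not taken as pairs, as nothing in the labels says so. The deviations of 21 same-numbered pairs correlated at -0.285 to 0.219, with 4 above 0.1. For 63 pairs of other numbers the range was -0.308 to 0.387, with 18 above 0.1. With so few libraries per group these correlations cannot show that no pairing or batch was present.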

Additional observations from a re-analysis of the deposited data

Results flagged for a closer look

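Single libraries stood apart from the other 3 of their group in 14 of 93 groups of 4 examined, by a gap to the nearest library that took most of the range of the group. The rate taken for chance was about 1 in 20 groups, which is only rough here. The groups share libraries, and most genes were chosen by their interaction. GW-LPS, with 3 libraries, was not examined in this way. In Ctrl-LPS replicate 1 the neutrophil marker sum was 3579.6 CPM against 512 to 631 CPM for the other 3, and the monocyte marker sum was 836 CPM against 227 to 302 CPM. The same library had high levels of Cxcl10 (74.1 CPM against 8.695 to 14.4 CPM), Tnf (296 CPM against 80.6 to 111 CPM) and Il1b (487 CPM against 145 to 184 CPM).

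In Ctrl-PBS replicate 3 the neutrophil marker sum was 30068 CPM against 546 to 694 CPM and the monocyte marker sum 2118 CPM against 109 to 160.0 CPM. That library also stood apart for Tnf (73.7 CPM against 36.2 to 38.1 CPM), Il1b (300.4 CPM against 43.8 to 66.9 CPM), Atp2a3 (89.4 CPM against 9.95 to 17.8 CPM) and Mfsd6 (12.98 CPM against 2.71 to 3.27 CPM), and its Saa3 level was 0.404 CPM where the other 3 were at 0. Tmem119 was low in GW-PBS replicate 3, at 5884 CPM against 6595 to 6664 CPM. The lymphocyte and NK cell marker sum was high in Ctrl-LPS replicate 3, at 563 CPM against 296 to 299.6 CPM, the library that shares a high heat shock sum with GW-LPS replicates 2 and 4.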

How the results depend on the processing

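The count of called genes was 0 in edgeR under RLE size factors, no filter, the 4 groups alone and the replicate block, 59 with DESeq2, 111 with limma voom, and 0 to 13 with 1 library left out (13 without Ctrl-LPS replicate 3). Negative genes at an unadjusted p under 0.05 numbered 858 with the replicate block and 497 without the 3 neutrophil-rich libraries, and 697 to 1981 with 1 library left out. Positive ones numbered 1334 with no filter, 1588 with limma voom, 357 without the 3 libraries and 522 to 1465 with 1 left out. Both counts were lowest without GW-PBS replicate 1 (the positive one also without Ctrl-LPS replicate 4) and highest without GW-PBS replicate 2. Library numbers were not taken to pair the libraries, and the replicate block changed the call of no named gene.

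Within arms, 360 to 1195 genes rose and 373 to 1091 fell in GW mice, and 1179 to 1918 rose and 1205 to 1867 fell in control mice, with 1 library left out. Without the 3 libraries 472 rose in GW mice and 1156 in control mice. Between exposed and control mice after LPS 0 to 32 genes were higher and 0 to 43 lower, with 32 and 43 without Ctrl-LPS replicate 3.

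Of the 24 list medians 5 moved beyond the spread between libraries without the 3 libraries, those of class I (-0.58), ribosomal protein (-0.43), oxidative phosphorylation (-0.26), translation (-0.24) and proteasome genes (-0.23). With 1 library left out class I genes ran from -1.05 to -0.67, homeostatic genes from 0.25 to 0.52, chemokines from -1.24 to -0.77, ribosomal protein genes from -1.09 to -0.58 and acute phase genes from -2.45 to -0.39. Of 1628 gene values over 22 settings 1564 kept sign and call, 49 became called and 15 changed sign. The last were Il1b (-1.39 to 0.20 with 1 library left out), Tmem119 (0.0205 with no filter, 0.11 with limma voom, 0.0085 without the 3 libraries, and -0.11 to 0.0911 with 1 left out) and H2-Aa (0.0146 with limma voom, 0.0468 with the replicate block, 0.26 without the 3 libraries, and -0.33 to 0.20 with 1 left out). The cause was not tested. RLE moved the median of all genes to 0.0376.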
